A study of Rattus norvegicus with 77 samples.

Results

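Measured here in rat sperm RNA were 10 genes of the immune GTPase families: the GTPases of immunity-associated proteins (Gimap1, Gimap4, Gimap5, Gimap6, Gimap7, Gimap8 and Gimap9), the guanylate-binding proteins Gbp2 and Gbp5, and the immunity-related GTPase Irgm. They were taken by gene symbol from an array of 29214 probe sets, where a probe set is the group of probes read as 1 transcript, and 14506 genes had a probe set with that symbol alone. Each of the 10 genes had exactly 1 such probe set, and no filter on low values was applied, so all 10 were measured and tested. The families were chosen by their values in the comparison of HD with water arrays, in which 2 of the 10 had differed in an earlier look at these data. Values of that comparison are therefore given as a description.

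Adult male Fischer 344 rats, with no transgene or mutant allele named for any group, received 0.33% HD (hexanedione, a toxicant of Sertoli cell microtubules) in their drinking water for 3 months, or water alone. The 4 groups were HD (19 arrays), water (20 arrays), both killed at the end of exposure, HD-recovery (20 arrays) and water-recovery (18 arrays), both given plain water for 3 further months. The recovery rats were thus also 3 months older than the others. Sperm from the cauda epididymides, where mature sperm are stored, had been passed through a buffer that lyses somatic cells, and the RNA of each rat went to 1 Affymetrix whole-transcript array. Per the labels each array was 1 biological replicate. Values are the deposited log2 values.

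GTPases of these families are switched by GTP and act mostly in cells of the immune system. GIMAP proteins sit on the membranes of lymphocyte organelles and set how long lymphocytes live. A mutation of Gimap5 is the lymphopenia locus of the diabetes-prone BioBreeding rat, in which T cells are lost. Guanylate-binding proteins and immunity-related GTPases are made in many cell types on exposure to interferons, above all interferon gamma, and coat the vacuoles of intracellular microbes. Mature sperm transcribe little, and their RNA is largely a remnant of the spermatid stage.

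In the RefSeq annotation of the rat (GRCr8) the 7 Gimap genes, which are all that it lists, lay side by side on chromosome 4 with no other protein-coding gene between them, in the order Gimap8, Gimap9, Gimap4, Gimap6, Gimap7, Gimap1, Gimap5. Gbp5 and Gbp2 lay in the Gbp cluster of chromosome 2, and Irgm on chromosome 10. The promoters of 4 members are shown, from 250 bases before to 50 bases after the annotated start, 5′ to 3′ on the strand of the gene. Gbp5 and Gimap4 are shown because their values moved together across arrays although they lie on different chromosomes, and Gbp2 and Irgm as the other members of the interferon-induced families. Capitals mark matches to GAAANNGAA, 9 bases from the core of the interferon-stimulated response element, and to TTCNNNGAA, the interferon gamma-activated site, on either strand.

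Gimap4, chr4:78967047-78967346, plus strand: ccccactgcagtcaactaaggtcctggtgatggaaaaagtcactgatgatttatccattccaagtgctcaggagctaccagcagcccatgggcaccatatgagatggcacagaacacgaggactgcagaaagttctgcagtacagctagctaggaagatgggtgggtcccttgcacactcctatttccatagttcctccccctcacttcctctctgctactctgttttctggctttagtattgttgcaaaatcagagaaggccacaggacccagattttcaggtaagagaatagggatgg

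Gbp5, chr2:233910749-233911048, plus strand: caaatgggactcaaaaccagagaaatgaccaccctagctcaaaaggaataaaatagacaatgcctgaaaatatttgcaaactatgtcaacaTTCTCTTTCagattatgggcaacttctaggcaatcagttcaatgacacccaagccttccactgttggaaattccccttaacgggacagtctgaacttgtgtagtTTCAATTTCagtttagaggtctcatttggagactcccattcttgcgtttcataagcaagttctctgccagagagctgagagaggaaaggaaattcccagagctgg

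Gbp2, chr2:234005477-234005776, plus strand: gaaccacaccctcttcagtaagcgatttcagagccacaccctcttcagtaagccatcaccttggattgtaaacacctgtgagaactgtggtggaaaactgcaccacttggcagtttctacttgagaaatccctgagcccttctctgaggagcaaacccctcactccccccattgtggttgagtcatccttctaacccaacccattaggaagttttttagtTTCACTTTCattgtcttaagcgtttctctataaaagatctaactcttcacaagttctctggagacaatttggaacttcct

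Irgm, chr10:33742529-33742828, minus strand: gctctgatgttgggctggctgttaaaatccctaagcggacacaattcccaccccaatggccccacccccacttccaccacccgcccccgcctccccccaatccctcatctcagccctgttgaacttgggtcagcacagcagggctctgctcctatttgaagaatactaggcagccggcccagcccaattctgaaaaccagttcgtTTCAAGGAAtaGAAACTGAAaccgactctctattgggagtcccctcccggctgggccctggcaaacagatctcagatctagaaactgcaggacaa

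GAAANNGAA was present in the promoters of all 3 of the GBP and IRGM members and in 1 of the 7 Gimap promoters, that of Gimap5. It was present in 9.71% of 33469 rat promoters of this length. In Gbp5 it read TTCAATTTC, beginning 55 bases before the start, and TTCTCTTTC, 159 bases before. In Gbp2 it read TTCACTTTC, 30 bases before the start, and in Irgm GAAACTGAA, 34 bases before. Where the match was also required to be followed by A on its own strand, as searched first, it remained in 3 of 3 GBP and IRGM promoters and in 0 of 7 Gimap promoters, against 3.92% of all promoters. The promoter of Gimap4 held neither interferon motif. TTCNNNGAA was found in Irgm alone of the 10, as TTCAAGGAA, 45 bases before the start, and in 8.87% of all promoters. The ETS core ACTTCC (either strand), a motif of many lymphocyte promoters, was present in 5 of the 7 Gimap promoters, Gimap4 among them, and in Gbp2 and Irgm, against 22.6% of all promoters. The motifs were chosen after these sequences had been read, and a match is a description of letters only.

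The arrays of 1 group differed from each other. After removal of the group means 41.9% of the variance of all probe sets lay on 1 component, arrays correlated with their own group at a median r between 0.83 and 0.978, and 11 arrays stood apart from their group (3 HD, 3 water, 3 HD-recovery and 2 water-recovery). Array medians lay between 6.51 and 6.78, and no 2 arrays were identical. Sperm were abundant in the RNA: 16 of 20 measured sperm and spermatid markers lay above the 95th percentile of the olfactory receptor genes, among them Prm1, the protamine that packs sperm DNA, at 12.87. The 1105 olfactory receptor genes, most of which are silent outside the nose, serve here as a scale of low signal, with a median of 6.6 and a 95th percentile of 7.83. Monocyte and macrophage markers lay above this median for 16 of 17 genes, NK cell markers for 7 of 8 and T cell markers for 14 of 21, but B cell markers for 2 of 6. Above the 95th percentile lay 4 of the 17 monocyte and macrophage markers, 3 of the 8 NK cell markers, 1 of the 21 T cell markers, 1 of the 6 B cell markers and 0 of 8 neutrophil markers.

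On that scale most of the immune GTPases were dim. Over all 77 arrays Gimap4 averaged 7.84, just above the 95th percentile of the olfactory receptor genes, and it was the only member above it. Gimap7 averaged 7.35 and Gbp5 averaged 7.14 (the 81.3 and 75.1 percentiles of the olfactory receptor genes), and the other 7 averaged between 5.71 and 6.80. Probe sets differ in how brightly they respond, so no order of expression between the genes is read from these levels. Spread within groups set Gimap4 and Gbp5 apart, but not Gimap7. The within-group SD was 0.34 for Gimap4 and 0.25 for Gbp5, and between 0.14 and 0.19 for the other 8, all under the median of 0.21 over all probe sets. Among probe sets whose level lay within 0.25 of their own, Gimap4 and Gbp5 were more variable than 74.8% and 72% of them, and the other 8 members were more variable than between 7.81% and 28.7%.

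**Figure D1:**
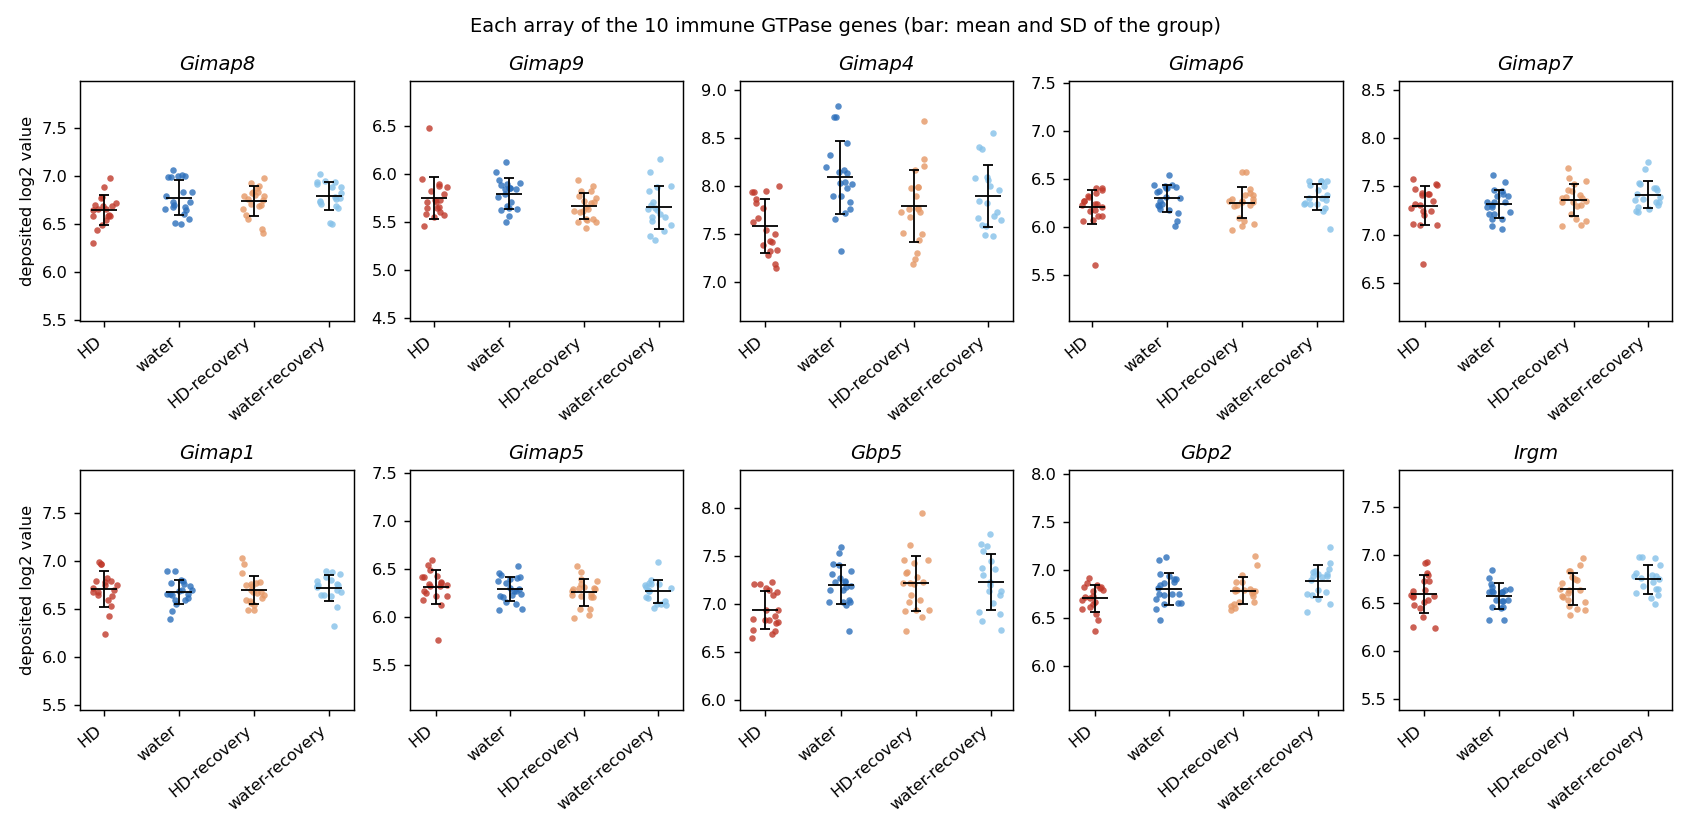
Deposited log2 value (vertical axis, each panel spanning the same range around its gene's mean) of the 10 genes on every array, by group (horizontal axis). Points are arrays and black bars the group mean and SD. Gimap4 and Gbp5 spread more widely than the others and had their lowest group mean in HD arrays (7.58 and 6.94). In Gimap5, Gimap6 and Gimap7 a single low point in the HD group is HD replicate 5.

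Gimap4, a lymphocyte GTPase that promotes T cell death in rodents, showed the widest separation at the end of exposure. In arrays labelled HD its value was 7.14 at the lowest, 7.54 at the median and 8.00 at the highest, against 7.32, 8.04 and 8.83 in arrays labelled water. All 19 HD arrays lay under the water median, 4 lay below the lowest water array, and 12 of 20 water arrays lay above the highest HD array, although the ranges overlapped. The mean was 7.58 ± 0.28 in HD arrays and 8.09 ± 0.38 in water arrays (SD, n = 19 and 20). The log2 difference was −0.51 (95% interval −0.72 to −0.30), a value 1.42-fold lower in HD arrays. This direction is opposite to that given by the study, for Gimap4 and Gbp5 as for most of the transcripts that it lists as raised. Which of the 2 directions is right cannot be told from the files, and the arrays are named here by their labels throughout.

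Gbp5, which in mouse and human cells aids assembly of the NLRP3 inflammasome, had 6.64, 6.88 and 7.23 in HD arrays (lowest, median, highest) and 6.71, 7.20 and 7.59 in water arrays. The ranges overlapped, with 16 of 19 HD arrays below the water median and 10 of 20 water arrays above the highest HD array. Its mean was 6.94 ± 0.20 in HD arrays and 7.20 ± 0.21 in water arrays (SD, n = 19 and 20), and the log2 difference −0.26 (95% interval −0.39 to −0.13), 1.20-fold lower in HD arrays. These were the 2 values that drew attention to the families. In limma with q-values over all probe sets, 138 probe sets (0.472%) differed at q under 0.05, 133 of them lower in HD arrays (0.455%), and Gimap4 (q = 0.0126) and Gbp5 (q = 0.0468) were the 2 members among them. Gbp5 stood just inside this threshold, and Gimap8, at q = 0.492, was the nearest member outside it. The call of Gbp5 was lost with arrays centred on their medians (q = 0.0993), with all 4 groups in 1 fit (q = 0.0829) and in 24 of 39 fits that each left out 1 array, and that of Gimap4 was kept in all of these.

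The remaining 8 members differed little at 3 months. Gimap8, the longest GIMAP protein with several GTPase domains, had 6.31, 6.66 and 6.98 in HD arrays and 6.50, 6.73 and 7.07 in water arrays, a log2 difference of −0.13 (95% interval −0.24 to −0.02). Gbp2, an interferon gamma-induced GTPase that attacks pathogen vacuoles, had 6.37, 6.73 and 6.92 in HD arrays and 6.48, 6.79 and 7.14 in water arrays, a log2 difference of −0.10 (95% interval −0.20 to 0.01). Both groups overlapped over most of their ranges in these 2 genes. Gimap6 had a difference of −0.09, Gimap9 of −0.04 and Gimap7 of −0.02, and Irgm, Gimap5 and Gimap1 had differences of 0.02, 0.02 and 0.03. Gimap5, the lymphopenia gene, averaged 6.32 ± 0.18 in HD arrays and 6.30 ± 0.13 in water arrays (95% interval of the difference −0.09 to 0.12). Its probe set lay at the 37.3 percentile of the olfactory receptor genes, near the middle of this scale of low signal. HD replicate 5, the array with the lowest correlation to its group, was the lowest HD array in Gimap1, Gimap5, Gimap6, Gimap7, Gimap8 and Irgm and the highest in Gimap9. In all, 7 members had a negative and 3 a positive difference, with a median of −0.07, while 43.7% of all probe sets were negative and their median was 0.01.

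**Figure D2:**
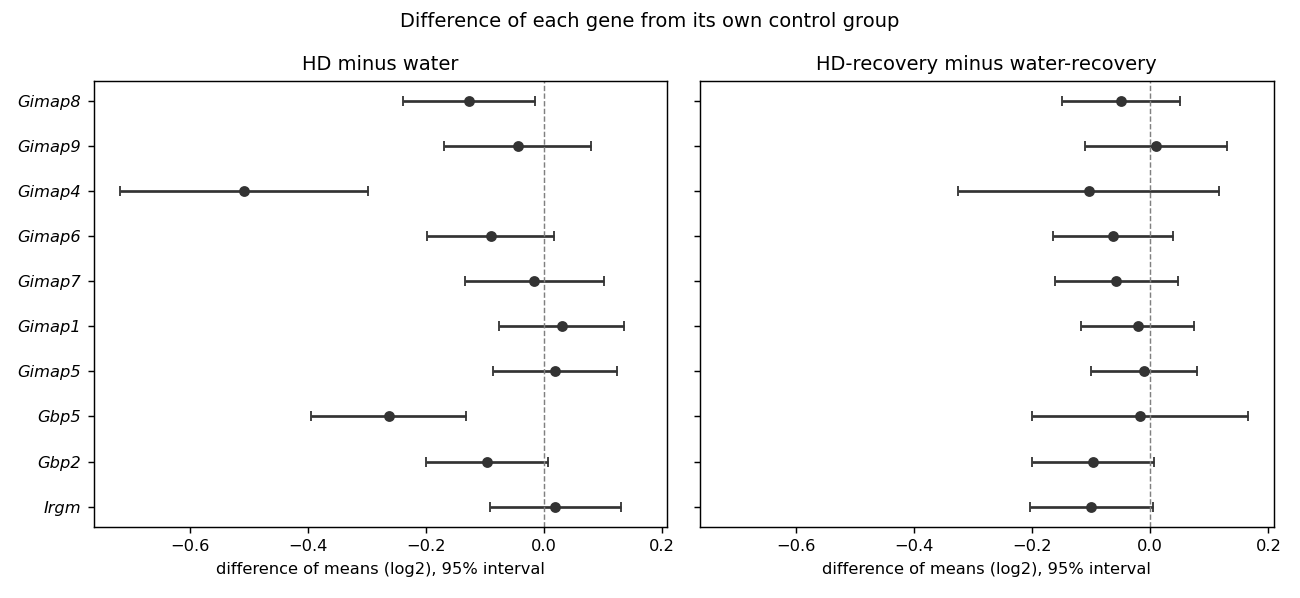
Difference of group means on the log2 scale (horizontal axis, point with 95% interval from limma) for the 10 genes (vertical axis, Gimap genes in chromosome order from the top), HD minus water on the left and HD-recovery minus water-recovery on the right. Gimap4 at −0.51 and Gbp5 at −0.26 stand left of the rest at 3 months, and after recovery 9 of 10 points lie below 0 with all intervals crossing it.

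The difference between HD and water arrays was also computed by range of the labels' replicate numbers. With numbers up to 10 (9 HD and 10 water arrays) the log2 difference of Gimap4 was −0.79 (SE 0.141), and with numbers over 10 (10 and 10 arrays) it was −0.23 (SE 0.110). For Gbp5 the values were −0.37 (SE 0.0907) and −0.16 (SE 0.0832). Over all probe sets 40 passed in the lower numbers and 0 in the higher ones. The labels do not call the numbers a batch, and this split was made after the data had been seen, so whether the ranges differ is given no test.

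The recovery arrays are other rats, so a difference of exposed from control rats can be tested in them. They were taken 3 months after exposure ended, so it is not the same difference as at the end of exposure. In HD-recovery arrays Gimap4 had 7.19, 7.76 and 8.67 (lowest, median, highest), against 7.48, 7.84 and 8.55 in water-recovery arrays. The groups overlapped almost fully, with 12 of 20 HD-recovery arrays below the water-recovery median. The means were 7.79 ± 0.38 and 7.89 ± 0.32 in HD-recovery and water-recovery arrays (SD, n = 20 and 18), and the log2 difference was −0.10 (95% interval −0.33 to 0.12, limma unadjusted p = 0.347, q = 1). Gbp5 had 6.72, 7.22 and 7.94 in HD-recovery arrays and 6.73, 7.21 and 7.73 in water-recovery arrays, with means of 7.21 ± 0.29 and 7.23 ± 0.29. Its difference was −0.02 (95% interval −0.20 to 0.17, limma unadjusted p = 0.844, q = 1). These intervals leave out the point values of both genes at 3 months (−0.51 and −0.26) but not smaller ones. Those point values are the ones by which the genes were chosen, and their own intervals overlap the intervals after recovery. No change between the 2 times is therefore read from this. With the arrays that stood apart left out, both differences were about 0, at 0.00107 for Gimap4 and 0.00811 for Gbp5. None of the 10 members passed, as none of the 29214 probe sets did (0% called by Storey's q-values or by Benjamini-Hochberg in limma, 1318 or 4.51% at an unadjusted p under 0.05, 0 of them members). The smallest p among the members belonged to Irgm, with 6.38, 6.64 and 6.97 in HD-recovery arrays against 6.49, 6.76 and 6.98 in water-recovery arrays and a difference of −0.10 (95% interval −0.20 to 0.00, p = 0.0609). Gbp2 followed with −0.10 (95% interval −0.20 to 0.01, p = 0.067), 17 of 20 HD-recovery arrays lying below the water-recovery median. The difference was negative in 9 of 10 members, while 53.6% of all probe sets were negative.

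The last comparisons set the recovery arrays against those from the end of exposure. Those with HD hold again the HD values by which Gimap4 and Gbp5 were chosen, so for these 2 genes they are descriptions. HD-recovery minus HD was 0.27 for Gbp5 (SE 0.0787, 95% interval 0.12 to 0.43) and 0.21 for Gimap4 (95% interval −0.01 to 0.42). In limma 45 probe sets passed in this comparison (0.154%), of which 0 were members. With array weights 3 members passed, Gbp5 (0.31) and Gimap4 (0.25) higher and Gimap5 (−0.12) lower in HD-recovery arrays, but so did 45.2% of all probe sets. Without the arrays that stood apart 3 members and 45.8% of all probe sets passed, and with the first component as covariate Gbp5 alone and 4.73%. Water-recovery minus water was 0.03 for Gbp5 (95% interval −0.13 to 0.19) and −0.20 for Gimap4 (95% interval −0.42 to 0.02, q = 0.882). The smallest p values of the members there were those of Irgm, with 0.17 (95% interval 0.07 to 0.28, unadjusted p = 0.00185, q = 0.882), and Gimap9, with −0.14 (unadjusted p = 0.0223, q = 0.882), but in limma 0 of 29214 probe sets passed (0%) by either adjustment, with 1374 (4.7%) at an unadjusted p under 0.05. By mean, Gimap4 ran from HD (7.58) through HD-recovery (7.79) and water-recovery (7.89) to water (8.09), with every interval between neighbours in this order spanning 0. For Gbp5 the HD mean of 6.94 stood below the other 3, which lay between 7.20 and 7.23.

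The HD effect at 3 months minus that after recovery shares its arrays with every comparison already given. It also holds the difference by which Gimap4 and Gbp5 were chosen, so it is given without a test. It was −0.40 for Gimap4 (95% interval −0.71 to −0.10) and −0.25 for Gbp5 (95% interval −0.47 to −0.02). The other 8 members had differences between −0.08 and 0.12. In limma 0 of the 29214 probe sets passed by either adjustment (0% called, 987 or 3.38% at an unadjusted p under 0.05). Counts of members under the alternatives rest on the same contrast, so they too are descriptions and no test of these 2 genes. They were 3 with array weights (where 33.7% of all probe sets passed) and 1 with the first component as covariate (where 1.22% passed). With the arrays that stood apart left out the count was 5 (where 48.1% passed).

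**Figure D3:**
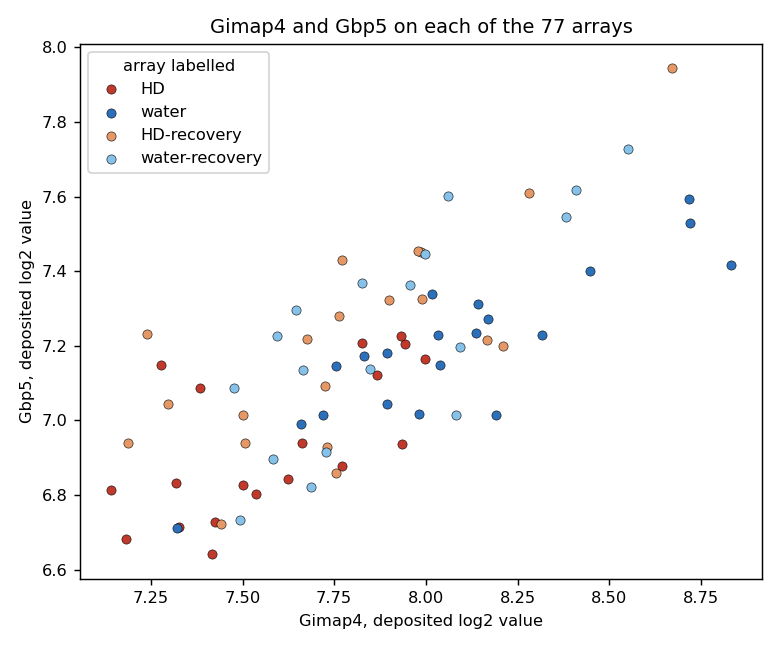
Deposited log2 value of Gbp5 (vertical axis) against that of Gimap4 (horizontal axis) on each of the 77 arrays, coloured by group. The points form 1 rising band in which the HD arrays lie at the lower left, none above 8.00 in Gimap4.

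Gimap4 and Gbp5 varied together from rat to rat within every group. With the group means removed their values had r = 0.755 and rho = 0.715 over 77 arrays (permutation test of arrays within groups, two-sided, p = 1e-05, the smallest that 100000 resamples can give, adjusted p = 0.00022 over 45 pairs of members). The correlation was 0.645 in HD arrays, 0.87 in water arrays, 0.751 in HD-recovery arrays and 0.771 in water-recovery arrays. It was 0.742 with replicate numbers up to 10 and 0.768 with numbers over 10, 0.735 once the arrays standing apart were left out, 0.795 with arrays centred on their medians, and 0.751 without the 2 arrays farthest from the median of Gimap4. Both values of a pair come from the same array and RNA, and what moves with both was not tested. Of 14496 other genes, 315 (2.17%) lay nearer to Gimap4 than Gbp5 did, and 19 (0.131%) lay nearer to Gbp5 than Gimap4 did.

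Gimap8 and Gbp2 joined this pair more loosely. Gimap8 had r = 0.524 with Gbp5 (adjusted permutation p = 0.00022) and 0.363 with Gimap4 (adjusted permutation p = 0.0082). Gbp2 had r = 0.468 with Gbp5 (adjusted permutation p = 0.0006) and 0.446 with Gimap4 (adjusted permutation p = 0.001), and Gimap8 and Gbp2 had 0.405 with each other (adjusted permutation p = 0.0031). All 6 correlations among these 4 genes, which come from 2 chromosomes, were thus positive and past the threshold. The correlation of Gimap4 with Gbp2 was 0.797 in water-recovery arrays but 0.0182 in HD arrays.

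Pairs within the Gimap cluster and pairs across chromosomes had similar median correlations. Adjacent Gimap genes had r between 0.0721 (Gimap8 and Gimap9) and 0.427 (Gimap1 and Gimap5), and the 21 pairs within the Gimap cluster had a median of 0.13, against 0.11 for the 21 pairs between a Gimap gene and Gbp2, Gbp5 or Irgm. Gimap4 had r = 0.218 with Gimap9 and 0.13 with Gimap6, its neighbours on either side. All adjacent Gimap pairs were thus positive. Gimap pairs that were not adjacent took both signs, from −0.293 (Gimap1 and Gimap9) to 0.407 (Gimap5 and Gimap7). Whether adjacent pairs differ from the others was not tested. In the whole family 10 of 45 pairs passed an adjusted permutation p of 0.05, and 9 of the 10 were positive. Outside the 4 genes already named these were Gimap1 with Gimap5 (0.427), Gimap5 with Gimap7 (0.407) and Gimap7 with Irgm (0.389). The single negative pair was Gimap1 with Gimap4 (−0.284, adjusted permutation p = 0.05 after rounding). Several of these rested on few arrays: Gimap5 with Gimap7 had r = 0.223 without the 2 farthest arrays and 0.154 once the arrays standing apart were left out, and Gimap1 with Gimap4 had −0.168 after centring. The share of all gene pairs that would pass was not computed. Over 14496 other genes the 99th percentile of r was 0.563 for Gimap1, 0.538 for Gimap5, 0.573 for Gimap7 and 0.525 for Irgm. Correlations among these genes lay below those values. For Gimap8 and Gbp2 it was 0.33 and 0.388, below their correlations with Gimap4 and Gbp5. For Gimap4 and Gbp5 it was 0.782 and 0.688, above those correlations.

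**Figure D4:**
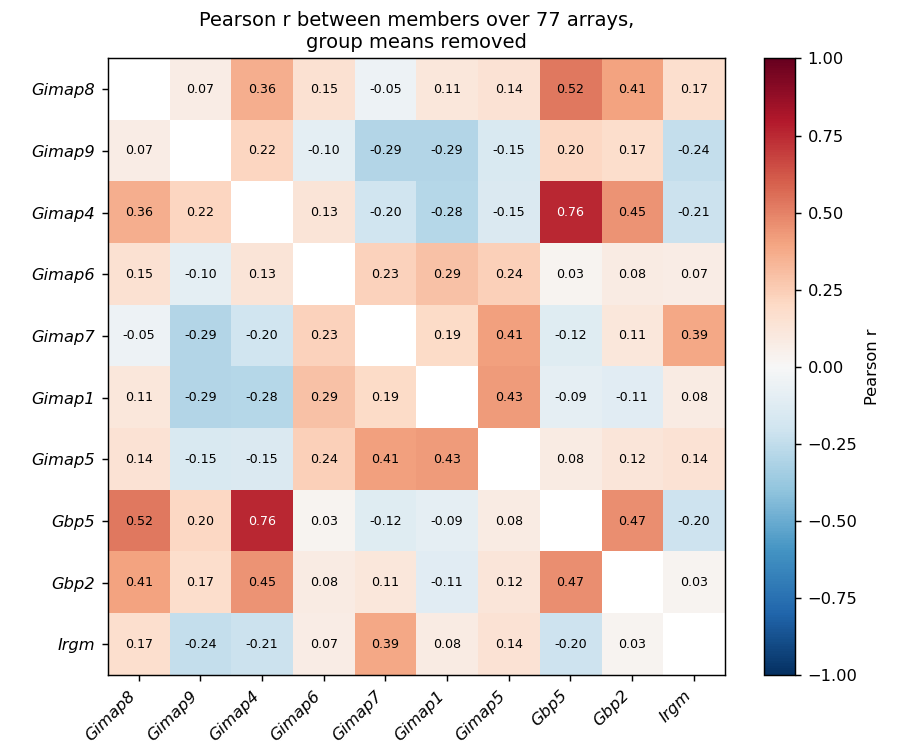
Pearson r (colour and number) between each pair of the 10 genes over 77 arrays with the group means removed, Gimap genes in chromosome order. The pair Gimap4 and Gbp5 (0.755) stands out from the other 44, and the block of neighbouring Gimap genes is mostly pale.

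The 5 genes nearest to Gimap4 across arrays were Klrk1, an activating receptor of NK and T cells (r = 0.869), Cd4, which marks helper T cells (0.861), Lcp2, an adaptor of T cell receptor signalling (0.858), the receptor phosphatase Ptprj (0.847) and the transcription factor Elf1 (0.847). Those nearest to Gbp5 were Lcp2 (0.814), Klrk1 (0.801), the adaptor Fyb1 (0.799), Ptprc, the leukocyte common antigen (0.794), and the kinase Lyn (0.794). Klrk1, Lcp2, Ptprc and Sp100 stood among the 10 nearest of both. Irgm and Gimap7 had other neighbours, with olfactory receptors such as Or8k20 (0.61) and Or5b99 (0.664) among them, and Gimap1 had Crybb3 (0.684), a lens crystallin. These neighbours of single members were looked up after the tests had been seen. By the rule set for the 2 families, the genes nearest to the mean of the 7 Gimap genes were Cx3cr1, the fractalkine receptor (0.58), RT1-S3 (0.579), Klri1 (0.574), Gpr174, Ikzf3, St3gal1, Slc29a3, Fcnb, Ccr2 and Zbp1. Those nearest to the mean of Gbp2, Gbp5 and Irgm were Ccr2, a chemokine receptor of monocytes (0.754), Il7r, the interleukin-7 receptor (0.701), Dock2 (0.695), Fyb1, Spn, Klrk1, Lcp2, Selplg, Ptprc and Nr3c1.

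Mean values of cell type lists gave the same division of the members. Over 77 arrays with the group means removed, Gimap4 had r = 0.83 with the mean of 8 NK cell markers, 0.752 with 17 monocyte and macrophage markers and 0.746 with 21 T cell markers. Its correlations were not confined to leukocyte lists, with 0.642 for red cell markers and 0.564 for markers of the epididymal epithelium. Gbp5 had 0.811, 0.685 and 0.769 with the NK cell, the monocyte and macrophage, and the T cell lists. Both were negatively correlated with B cell markers (−0.487 for Gimap4 and −0.333 for Gbp5) and with endothelial markers (−0.54 for Gimap4 and −0.38 for Gbp5), and had 0.304 (Gimap4) and 0.153 (Gbp5) with sperm and spermatid markers. Gimap5, Gimap7, Gimap1 and Irgm did the reverse: with the mean of 6 B cell markers they had r = 0.568, 0.611, 0.431 and 0.384, and with NK cell markers −0.0867, −0.137, −0.282 and −0.0712. With the arrays that stood apart left out these B cell values were 0.239, 0.423, 0.281 and 0.193. Gimap5, Gimap7 and Gimap1 also had r = 0.562, 0.511 and 0.474 with endothelial markers. With type I interferon genes they had 0.663, 0.605 and 0.479, so their correlations were not particular to B cell markers. These values too were mostly lower with the arrays that stood apart left out. They were then 0.3, 0.286 and 0.39 for endothelial markers and 0.455, 0.405 and 0.311 for type I interferon genes. Gimap8 and Gbp2 lay between, with 0.516 and 0.471 for T cell markers. These are descriptions, and both values of each pair come from the same array and RNA.

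**Figure D5:**
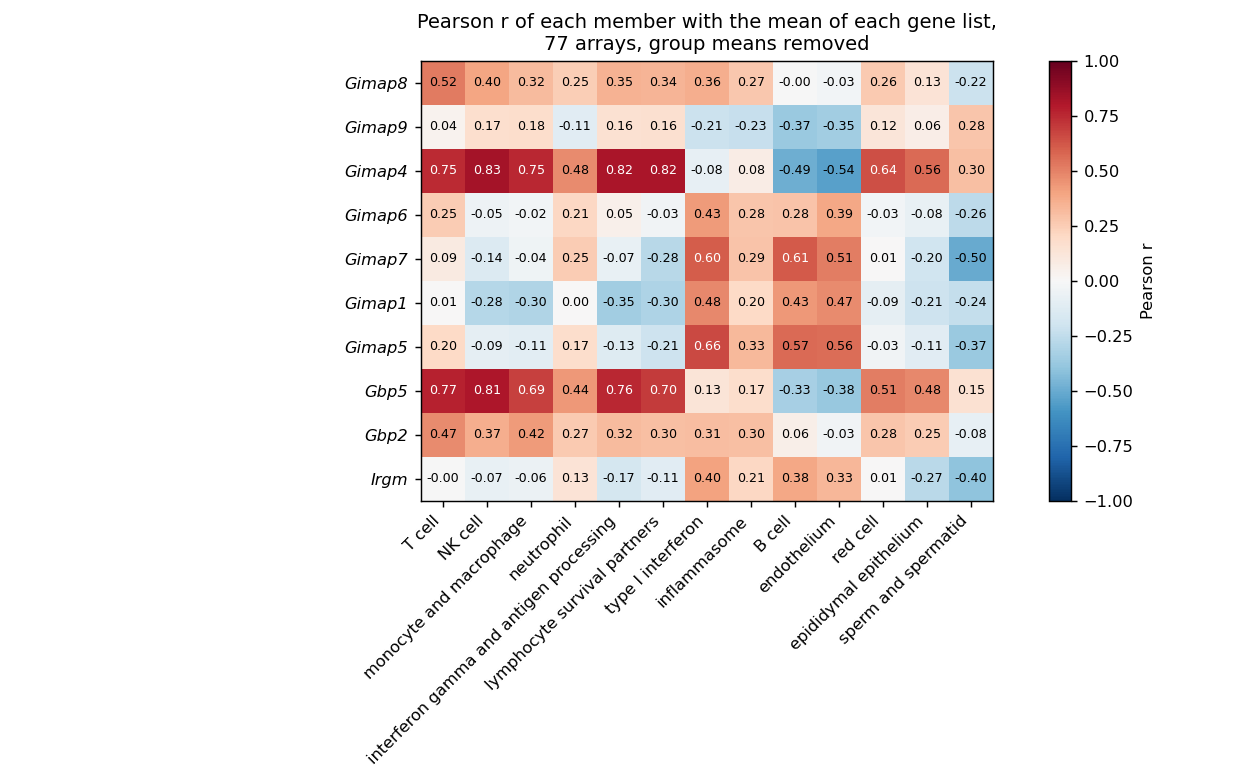
Pearson r (colour and number) of each of the 10 genes (rows) with the mean of each gene list (columns) over 77 arrays, group means removed. Gimap4 and Gbp5 are dark red for T cell, NK cell, monocyte and macrophage and interferon gamma lists (0.685 to 0.83), and Gimap5, Gimap7, Gimap1 and Irgm are near 0 or below for NK cell markers.

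Several leukocyte markers were also lower in HD than in water arrays. The mean of the 17 monocyte and macrophage markers ranged from 7.07 to 7.71 in HD arrays and 7.18 to 7.77 in water arrays (7.25 ± 0.17 and 7.46 ± 0.14, SD), and 4 of the 17 passed as lower in HD arrays (Cx3cr1, Ccr2, Lyz2 and Fcer1g), where 0.455% of all probe sets did. For the 21 T cell markers the mean ranged from 6.24 to 6.87 in HD arrays and 6.63 to 6.97 in water arrays (6.63 ± 0.13 and 6.76 ± 0.08, SD). Cd4 and Cd5, a brake on T cell receptor signalling, passed, both lower in HD arrays, and 12 of 21 were lower at an unadjusted p under 0.05, where 4.91% of all probe sets were. Cd3d, part of the T cell receptor complex, was at 6.67 in HD arrays and 6.65 in water arrays, close to the olfactory median, and Cd3e was at 6.93 and 7.16 in HD and water arrays. The 8 NK cell markers averaged 7.47 ± 0.24 in HD arrays (7.12 to 8.02) and 7.72 ± 0.20 in water arrays (7.41 to 8.12), with 0 called and 5 lower at an unadjusted p under 0.05. Of 6 B cell markers 0 were called and 0 reached an unadjusted p under 0.05 in limma. Of 6 red cell markers, 6 had a negative difference and Ahsp, a chaperone of alpha globin, passed. Of 8 neutrophil markers 2 were lower and 0 higher at an unadjusted p under 0.05, and 0 passed. Of 20 sperm and spermatid markers 6 were lower and 6 higher at that p, and Odf1 passed as lower (−0.22). Of 9 epididymal markers 2 were lower and 2 higher, and 0 passed. Lower values were thus not confined to leukocyte markers. In a bulk sample fewer cells of a type and less RNA per cell cannot be told apart, and the part of residual leukocytes in the values of Gimap4 and Gbp5 was not tested.

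None of the listed genes of the pathways that induce or use these GTPases passed at 3 months. Among 24 measured genes of interferon gamma signalling and antigen processing 0 passed in limma, where 0.472% of all probe sets did. Lower in HD arrays at an unadjusted p under 0.05 in limma were 3 of the 24, against 4.91% of all probe sets. These were Tapbp, which loads peptides on MHC class I (−0.17, q = 0.105), B2m, the light chain of MHC class I (−0.60, q = 0.202), and the receptor chain Ifngr1 (−0.29, q = 0.274). The list's median was −0.03, against 0.01 over all probe sets. Irf1, the factor that interferon gamma induces, was looked up later and had −0.11 (q = 0.659). Across arrays Gimap4 followed the mean of this list (r = 0.818), as did Gbp5 (r = 0.757). For Gimap4 this was not particular to the list, with r = 0.817 for the mean of 7 Bcl-2 family genes and 0.83 for NK cell markers. Of 22 measured type I interferon genes 0 passed and 3 were lower at an unadjusted p under 0.05 in limma, against the same 4.91%. They were Mx1 (−0.19), Irf9 (−0.15) and Rsad2 (−0.15). The median of this list was −0.02, and Gimap4 had r = −0.0849 with it across arrays.

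Of 8 measured inflammasome genes, the machinery that Gbp5 is known to aid, 0 passed and 0 reached an unadjusted p under 0.05 at 3 months in limma (median −0.06). The smallest p values were those of Nek7, a kinase that binds NLRP3 (−0.10), Gsdmd, the pore of pyroptosis (0.10), and Casp1, the inflammasome protease (−0.11). Gimap proteins bind members of the Bcl-2 family in lymphocytes, and of 7 such survival genes 0 passed. Bcl2, which blocks cell death, had −0.38 (q = 0.31), Mcl1, another blocker, −0.21 (q = 0.471), and Bcl2l1, which encodes Bcl-xL, 0.12 (q = 0.319). Of 5 further genes of the immunity-related GTPase and Mx families with a probe set of their own, 0 passed. Irgc, a testis-specific member of the immunity-related GTPases, had the largest value, 0.40 (q = 0.587) at 3 months and 0.35 (q = 1) after recovery, and Mx1, an antiviral dynamin-like GTPase, had −0.19 (q = 0.13) and −0.15 (q = 0.997). The remaining 3 of the list, Igtp, Irgq and Mx2, lay between −0.03 and 0.00 at 3 months.

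After recovery no gene of any of these lists passed, as no probe set did. The smallest p values among the interferon gamma genes were then those of Ido1 (0.14), Cxcl10 (−0.09) and Ifngr1 (−0.14), and among the type I interferon genes those of Irf7 (−0.15, q = 0.72), Mx1 and Oas1a (−0.11). Among the inflammasome genes they were those of Pycard, the adaptor ASC (0.12, q = 0.96), Il18 (−0.11) and Il1b (−0.10). Among the survival genes they were those of Mcl1 (−0.12), Bad (0.05) and Bcl2l11 (−0.06), and among the other GTPases those of Mx1, Irgc and Irgq (−0.15).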

How the data were processed

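Sperm RNA of 77 rats was hybridised to 77 arrays. The authors deposited 1 table of log2 values, already normalized by published methods (steps not stated in the sources read here), and they used limma (version not given). The log2 scale was taken from the range of the deposited values (2.51 to 14.63). Intensity over background is not in the table, so the number of arrays limits the precision. Probe sets were named from the platform annotation (15310 with 1 symbol, 323 with several, 13581 with none), and all 29214 were tested without a filter.

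Each HD group was compared with its own water group by limma 3.58.1 in R 4.3.3, with Storey q-values over all probe sets and a threshold of 0.05. The other contrasts came from 1 fit of all 4 groups. Fits were tested on simulated data with independent noise for each probe set. Such data lack the shared component and the arrays standing apart, so they cannot show how the q-values hold here. The 10 genes, the lists and the alternatives were chosen with earlier results of these data known. Named by rule are all 10 genes, the 3 genes of each pathway list with the smallest p, and the 10 nearest to each family mean. Markers that define a cell type, the neighbours of single members, Irf1 and Igtp were added after their values were seen. Promoters came from RefSeq (GRCr8), where all 10 genes matched, each with 300 bases. Same-numbered rats were not paired: 8 of 19 and 8 of 18 same-numbered pairs correlated above 0.1. Alternatives were scaling, array weights, a component covariate, arrays left out, adjustment, a low-value filter and replicate number.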

Additional observations from a re-analysis of the deposited data

How the results depend on the processing

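The number of arrays and their spread within groups limit these results. At 3 months Gimap4 kept its direction and its call under all 10 alternatives (−0.60 to −0.50), and Gbp5 kept its direction. Both genes were chosen by this comparison in these same arrays. The alternatives therefore describe how its values depend on the processing and are no independent support for the calls. Members called numbered 1 with centred arrays, 1 with all 4 groups in 1 fit, and 1 to 2 without single arrays. In fits added after seeing the data they numbered 1 with replicate numbers up to 10 and 0 with numbers over 10. The causes were not tested.

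Over all probe sets, calls of HD minus water numbered 138 (5 higher, 133 lower), and 63 with centred arrays, 352 with quantile normalization, 5178 with array weights (2644 higher, 2534 lower), 1433 with the first component as covariate (388 higher, 1045 lower), 4349 without the arrays that stood apart (2027 higher, 2322 lower), 222 among probe sets above the median level, 221 with all 4 groups in 1 fit (46 higher, 175 lower), and 76 to 376 without single arrays. HD-recovery minus water-recovery gave 0, and 527, 60 and 3834 with array weights, the covariate and arrays apart left out. HD-recovery minus HD gave 45, and 16 (centred), 120 (quantile), 13211 (weights), 1383 (covariate), 13372 (arrays apart left out), 84 (above the median level) and 16 to 172 without single arrays, with 3, 1 and 3 members called under weights, covariate and arrays left out. Water-recovery minus water gave 0, but 315 with the covariate and 0 to 1 without single arrays. The difference of the HD effects gave 0, but 9833 with weights, 356 with the covariate and 14059 with arrays apart left out, with 3, 1 and 5 members. Under weights or with arrays left out Storey's q can fall below p (Gimap4 after recovery, p = 0.992 and q = 0.414), so these counts are not firm.

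With the replicate block HD minus water gave 156 calls, 2 of them members, and no call of a member changed. Signs turned for values near 0 (the largest 0.06, Gimap7 in HD-recovery minus HD) and for Gimap4 in HD-recovery minus water-recovery (−0.10). With array weights Gimap7 was 0.0456 in HD minus water, Gimap6 −0.0231 and Gimap7 −0.00519 in HD-recovery minus HD, and Gimap6 0.0577 in the difference of effects. With arrays apart left out Gimap7 was 0.0242 in HD minus water, Gimap4 0.00107 and Gbp5 0.00811 in HD-recovery minus water-recovery, Gimap6 −0.0177 and Gimap7 −0.00664 in HD-recovery minus HD, Gimap8 −0.0127 and Gbp5 −0.0110 in water-recovery minus water, and Gimap6 0.0535 and Gbp2 −0.0227 in the difference of effects. Gbp2 in that difference was −0.00558 centred, −0.00507 with quantile normalization, −0.00612 with the replicate block and −0.000699 with the 2 ranges of numbers as a block. Gimap5 in HD-recovery minus water-recovery was 0.00531 with the replicate block. Without single arrays Gimap7 ranged between −0.0314 and 0.0175 in HD minus water. In HD-recovery minus water-recovery Gimap5 ranged between −0.0247 and 0.00755, Gimap9 between −0.00989 and 0.0394 and Gbp5 between −0.0565 and 0.0114. Gimap1 ranged between −0.0392 and 0.00261 in HD-recovery minus HD, and Gbp5 between −0.000130 and 0.0584 in water-recovery minus water. In the difference of effects Gimap6 ranged between −0.0420 and 0.00663 and Gbp2 between −0.0207 and 0.0190. Each member has 1 probe set, so the mean over several was not run.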
